A study of Homo sapiens with 12 samples.

Results

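The genes described here are 8 Frizzled receptors, FZD1 to FZD8, and the coreceptors LRP5 and LRP6. They were taken by symbol from the 18815 rows of an RNA-seq table of human intrahepatic cholangiocarcinoma (ICC) cells, a cancer of the bile ducts within the liver. All 10 receptor genes had a row, and all 10 passed the filter on low values that left 16146 genes for testing. The 12 libraries came from 3 established lines of that cancer, SSP-25, HuH-28 and RBE, each transfected with an siRNA against LKB1 or with a control siRNA and collected at 48 h, with 2 libraries for each line and siRNA. LKB1, encoded by STK11, is a kinase that activates AMPK, and the study asked what its loss does to gene expression in ICC cells. Every group carried an siRNA and its transfection reagent, so neither siRNA was set against untransfected cells. HuH-28 was grown in MEM and the other lines in RPMI1640, both with fetal bovine serum, so line and medium cannot be told apart. The libraries are numbered 1 and 2, which the study explains as a first and a second test. Whether these were separate cultures is not stated in the sources used here, so p-values measure the spread between these libraries, part of which may be technical.

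Values are the signal as deposited, normalized reads per kilobase of transcript, which lets the levels of different genes be set side by side. The signal summed to between 9909644 and 11726703 in a library, and 14169 to 14506 genes reached a signal of 1. These sums are on the authors' normalized scale, and the number of reads behind them is unknown. STK11 was lower with LKB1 siRNA in each line, with a log2 fold change of -1.59 for HuH-28 (adjusted p = 1.1e-05), of -1.68 for RBE (adjusted p = 3.2e-06) and of -2.77 for SSP-25 (adjusted p = 1.7e-07). Of 7 markers of biliary epithelium, 6 in HuH-28 and 7 in each of RBE and SSP-25 had a signal of 1 or more in every library. Of 6 hepatocyte genes, 1 for HuH-28, 3 for RBE and 0 for SSP-25 reached 1 in every library. ALB and APOB were below 1 in every HuH-28 and RBE library, and APOB and TTR in every SSP-25 library. The summed hepatocyte signal was 141 to 194 with LKB1 siRNA and 150 to 178 with control siRNA in HuH-28, 1578 to 1587 against 1142 to 1281 in RBE, and 4.15 to 4.21 against 3.84 to 5.30 in SSP-25. Of 5 fibroblast genes, HuH-28 had 5, RBE 2 and SSP-25 4 at 1 or more in every library, while DCN and LUM were below 1 in RBE and DCN in SSP-25. Their summed signal was 21280 to 22270 with LKB1 siRNA and 18040 to 18480 with control siRNA in HuH-28, 75.3 to 80.8 and 53.6 to 55.1 in RBE, and 11100 to 11500 and 6605 to 7014 in SSP-25. Each library came from cultured cells of the same line. In such bulk RNA, more cells of the line with a transcript and more transcript per cell cannot be told apart. The biliary sum was 12980 to 13730 with LKB1 siRNA against 9487 to 10380 with control siRNA in HuH-28 and 20410 to 21320 against 15070 to 15350 in SSP-25, but in RBE it was lower with LKB1 siRNA, at 38520 to 39030 against 47020 to 50560. Of 4 endothelial genes, 1 for HuH-28, 2 for RBE and 3 for SSP-25 reached 1 in every library, with CDH5 below 1 in each line, and their sum was 373 to 384 with LKB1 siRNA against 262 to 275 with control siRNA in HuH-28, 8.30 to 11.5 against 11.99 to 15.2 in RBE, and 10.2 to 11.2 against 8.77 to 11.1 in SSP-25. Of 5 leukocyte genes, 2 for HuH-28, 2 for RBE and 1 for SSP-25 reached 1 in every library, with CD3E below 1 in each line, and their sum was 12.9 to 13.3 with LKB1 siRNA against 10.0 to 17.4 with control siRNA in HuH-28, 109 to 124 against 155 to 159 in RBE, and 27.9 to 30.3 against 11.7 to 12.5 in SSP-25. The fibroblast sum alone was higher with LKB1 siRNA without overlap in each line, as FZD1, FZD2, FZD4, FZD7 and LRP6 below were. The other receptors were not. How many of all genes tested were higher without overlap in each line was not counted. The part of these marker sums in the receptor results was not tested.

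Frizzled receptors are multi-pass membrane proteins that bind secreted Wnt ligands through a cysteine-rich domain outside the cell. In the canonical branch of the pathway a Wnt joins a Frizzled to LRP5 or LRP6, Dishevelled is recruited below the membrane, and β-catenin escapes degradation and acts with TCF factors in the nucleus. By sequence, FZD1, FZD2 and FZD7 form one branch of the family, FZD5 and FZD8 another, FZD3 and FZD6 one more, known best from planar polarity, and FZD4 stands with FZD9 and FZD10.

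The branch of FZD1, FZD2 and FZD7 is close enough at the base level to bear on how reads are assigned, and the stretch below shows where. FZD1 (chr7:91264364-91271326), FZD2 (chr17:44557459-44559570) and FZD7 (chr2:202034587-202038445), all on the plus strand of GRCh38 in GENCODE, each have 1 exon in the transcript compared. Their coding sequences were 82.4% identical between FZD1 and FZD2, 82.6% between FZD2 and FZD7 and 81.3% between FZD1 and FZD7 over the aligned bases. The longest run of identical coding bases was 81 bases, shared by FZD1 and FZD2. It is printed with 20 bases on either side and with the matching stretch of FZD7, 121 bases each, 5′ to 3′, and capitals mark the 13 positions at which the 3 genes are not all the same.
FZD1, coding bases 1162 to 1282: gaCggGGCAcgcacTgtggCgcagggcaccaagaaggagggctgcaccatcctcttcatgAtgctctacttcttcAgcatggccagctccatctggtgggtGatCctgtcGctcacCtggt
FZD2, coding bases 937 to 1057: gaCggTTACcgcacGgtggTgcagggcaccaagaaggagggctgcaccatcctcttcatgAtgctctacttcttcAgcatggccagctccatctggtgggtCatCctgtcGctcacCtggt
FZD7, coding bases 964 to 1084: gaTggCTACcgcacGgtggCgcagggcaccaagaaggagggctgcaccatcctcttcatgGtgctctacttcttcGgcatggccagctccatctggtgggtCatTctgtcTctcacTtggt

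Reads were 40 bases long, so a read that lies wholly within such a run could come from either gene. Over the whole coding sequence these words were few. Of the 40-base words of FZD2, 5.43% occurred in the coding transcripts of another gene, here FZD1, FZD5 or FZD7, and the shares were 3.0% for FZD1, 3.09% for FZD7, 2.27% for FZD5, 1.22% for FZD8 and 0.583% for LRP5, the last all with LRP5L. FZD3, FZD4, FZD6 and LRP6 shared none. The treatment of reads that match several genes was not given in the sources used here, and untranslated parts were not compared. LRP5 (chr11:68312609-68449275, plus strand) and LRP6 (chr12:12116025-12267012, minus strand) each have 23 exons. Their coding sequences were 66.3% identical over the aligned bases, with 98.7% of the longer sequence aligned. Identity alone does not mark kinship by this measure. FZD1 and LRP5 were 72.8% identical over the 39.8% of the longer sequence that aligned.

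Promoters, meaning 250 bases before to 50 after the start of a gene, were at hand in RefSeq (GRCh38.p14) for 5 of the 10 genes, FZD1, FZD4, FZD5, FZD8 and LRP5. They were searched on both strands for the TCF motif CTTTGA or CTTTGT, the letters that TCF factors prefer, which 26.2% of 35116 promoters of that length hold. The promoter of FZD1 held 1 match, at position -224 from the start, and the others held none. Each had more CG dinucleotides than the median promoter, with 25 in FZD1, 40 in FZD4, 38 in FZD5, 31 in FZD8 and 52 in LRP5, against a median of 14 over all promoters. The promoter with a match and that of FZD4, a gene higher with LKB1 siRNA in each line, are printed on the strand of the gene, with the match in capitals.
FZD1, chr7:91264183-91264482, plus strand: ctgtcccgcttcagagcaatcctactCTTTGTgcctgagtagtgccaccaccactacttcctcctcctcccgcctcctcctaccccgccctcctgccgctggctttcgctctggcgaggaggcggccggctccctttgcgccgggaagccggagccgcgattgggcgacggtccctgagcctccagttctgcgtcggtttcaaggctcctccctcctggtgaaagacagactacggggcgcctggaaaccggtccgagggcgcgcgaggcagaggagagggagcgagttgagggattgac
FZD4, chr11:86955346-86955645, minus strand: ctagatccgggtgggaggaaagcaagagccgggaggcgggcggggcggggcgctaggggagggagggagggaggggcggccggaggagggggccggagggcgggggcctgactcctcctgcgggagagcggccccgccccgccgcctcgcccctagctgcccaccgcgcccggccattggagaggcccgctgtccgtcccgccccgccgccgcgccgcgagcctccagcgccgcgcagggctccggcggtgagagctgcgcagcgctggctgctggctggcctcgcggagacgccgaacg
A match is a description of these letters and does not show that a factor binds there.

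With control siRNA the lines shared one leading receptor and differed in what came next. FZD6 had the highest mean signal of the 10 genes in each line, HuH-28 having 1183 and 1264, RBE 593 and 594, and SSP-25 396 and 417. In SSP-25 its libraries overlapped those of FZD2, at 406 and 384, so the order of the leading pair there did not hold beyond their spread. LRP5 came next in HuH-28 and RBE, with a mean of 534.9 and 470.5, and after FZD2 in SSP-25, with 354.9. FZD3, a receptor for axon guidance in the mouse, and FZD8 were the lowest of the 10 in each line. FZD8 averaged 5.63 for HuH-28, 10.2 for RBE and 7.61 for SSP-25, at the 21.3, 24.3 and 23.3 percentile of the genes tested, while FZD6 stood at the 88.6, 78.8 and 69.6 percentile.

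**Figure D1:**
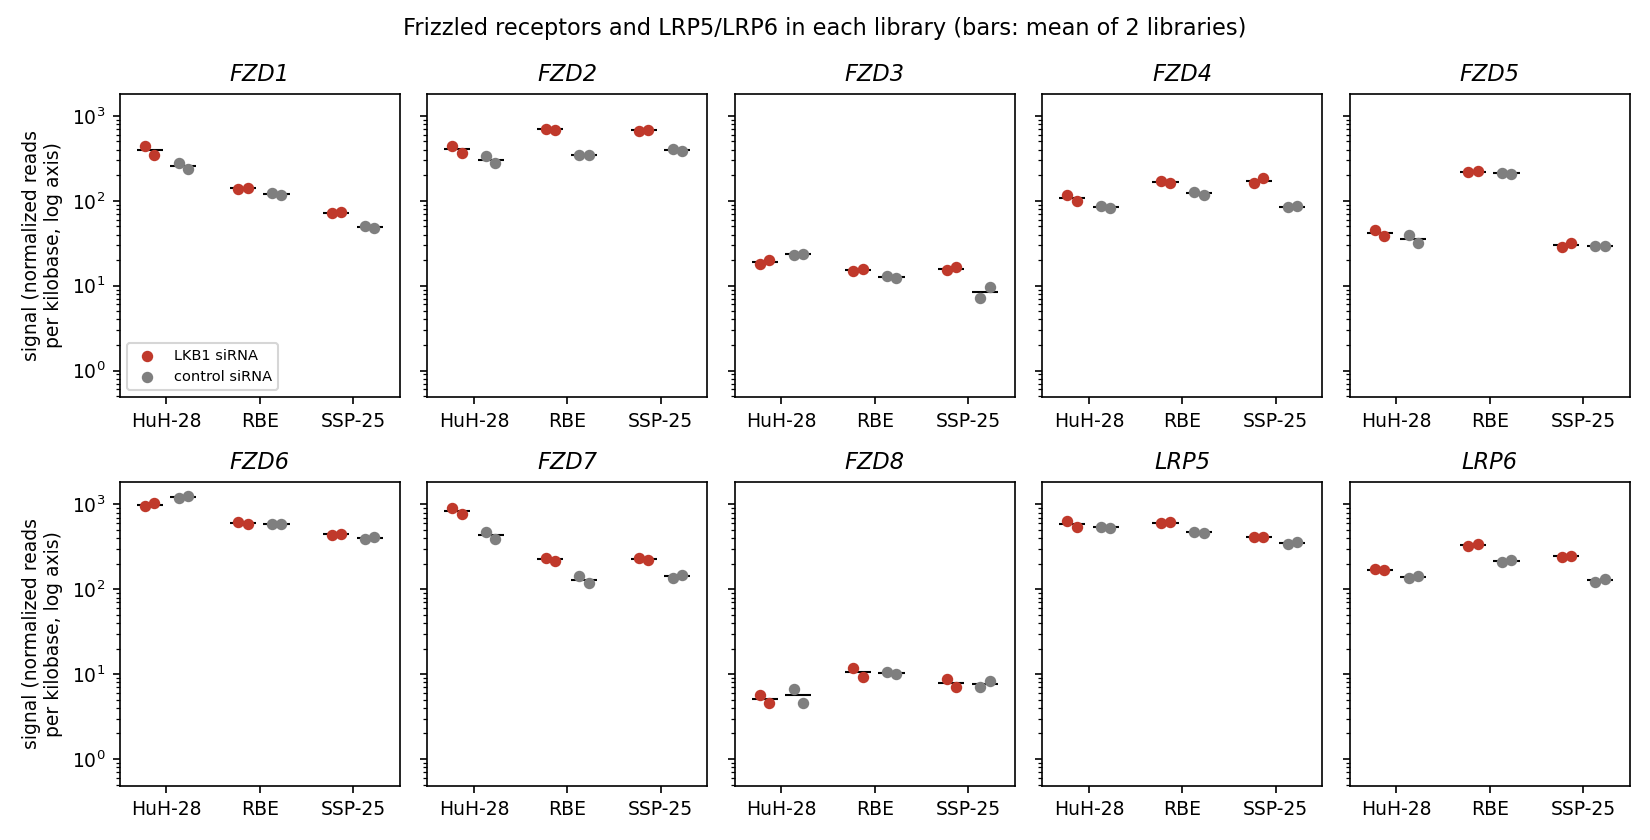
Signal of each receptor gene in each library (normalized reads per kilobase, log axis), LKB1 siRNA in red left of control siRNA in grey, with bars at the mean of the 2 libraries. FZD1, FZD2, FZD4, FZD7 and LRP6 sit higher with LKB1 siRNA in each line without overlap, and the share of all genes that do so was not counted. FZD5 is high in RBE alone among the lines, and FZD8 lies near 5 to 12 in every library.

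Below FZD6 and LRP5 each line had its own pattern. In HuH-28 the order ran on to FZD7, FZD2, FZD1, LRP6, FZD4 and FZD5, with means of 436.6, 306.6, 260.5, 138.6, 84.8 and 35.4, and the libraries of FZD2 and FZD1 overlapped. In RBE it ran FZD2, LRP6, FZD5, FZD7, FZD4 and FZD1, with means of 346.0, 215.7, 210.4, 130.1, 122.4 and 119.2, where LRP6 overlapped FZD5 and FZD7, FZD4 and FZD1 overlapped in turn. In SSP-25, after LRP5, it ran FZD7, LRP6, FZD4, FZD1 and FZD5, with means of 142.4, 127.0, 85.4, 48.9 and 29.6. The mean of FZD3 was 23.5 for HuH-28, 12.7 for RBE and 8.36 for SSP-25, and in the last of these its libraries overlapped those of FZD8.

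Tested between lines under control siRNA, 9 of the 10 genes differed between HuH-28 and RBE, 6 between HuH-28 and SSP-25 and 7 between RBE and SSP-25. The background was high, since 77.3%, 74.8% and 73.1% of all genes tested differed in those comparisons, so these counts are near the background and are not a result about the receptors. The contrast was steepest for FZD5, a receptor that the ubiquitin ligases RNF43 and ZNRF3 remove from the cell surface. FZD5 had a signal of 214 and 207 in RBE, against 29.7 and 29.5 in SSP-25, a 7.01-fold difference (log2 2.81, SE 0.13, adjusted p = 1.8e-08). Its level in HuH-28, 39.1 and 31.7, was 0.169 of that in RBE (adjusted p = 2.6e-08), and between HuH-28 and SSP-25 the log2 difference was 0.25 with a 95% interval of -0.04 to 0.53.

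HuH-28 held the highest FZD1, FZD6 and FZD7 under control siRNA. FZD1 was 2.17-fold its level in RBE and 5.27-fold that in SSP-25 (adjusted p = 5.7e-06 and 2.0e-08). FZD7, which mouse intestinal stem cells rely on for Wnt reception, was 3.35-fold and 3.05-fold higher (adjusted p = 4.5e-07 and 1.0e-06), HuH-28 having 479 and 394 against 143 and 117 in RBE, and SSP-25 having 137 and 148. FZD6 was 2.06-fold and 3.01-fold higher (adjusted p = 5.7e-08 and 3.5e-09). LRP6 instead was highest in RBE, at 0.643 of that level in HuH-28 (adjusted p = 7.9e-06) and with 1.70-fold more in RBE than in SSP-25 (adjusted p = 2.3e-06). The small difference of LRP5 between HuH-28 and RBE, 1.14-fold (adjusted p = 0.035), was lost after quantile normalization (log2 0.04, adjusted p = 0.61) and after upper-quartile scaling (log2 0.04, adjusted p = 0.63). It was also lost with no filter (adjusted p = 0.0512), with no variance trend (adjusted p = 0.0637) and without any 1 of 6 libraries. FZD8 between HuH-28 and RBE (log2 -0.83, adjusted p = 0.011) was lost without HuH-28 control library 2 (adjusted p = 0.091) or RBE control library 1 (adjusted p = 0.052). FZD2 between HuH-28 and SSP-25 (log2 -0.37, adjusted p = 0.0072) was lost without HuH-28 control library 2 (adjusted p = 0.066). FZD3 between RBE and SSP-25 (log2 0.58, adjusted p = 0.013) was lost without RBE control library 1 (adjusted p = 0.060) or SSP-25 control library 1 (adjusted p = 0.10), and after quantile normalization (log2 0.38, adjusted p = 0.076).

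With LKB1 siRNA against control siRNA, 5 of the 10 genes rose and 1 fell in HuH-28, 5 rose and 0 fell in RBE, and SSP-25 had 7 that rose and 0 that fell at an adjusted p under 0.05. Over all genes tested 14.3% rose and 15.5% fell in HuH-28, 22.1% rose and 18.6% fell in RBE, and 21.1% rose and 21.1% fell in SSP-25. Upper-quartile scaling moved the balance over all genes in SSP-25, where higher genes made up 49.9% of those that passed in the main fit and 62.1% after that scaling, while the median log2 fold change of all genes became 0.08. The median log2 fold change of the 10 genes was 0.27 for HuH-28, 0.32 for RBE and 0.63 for SSP-25, beside 0.01, 0.01 and 0.02 over all genes. Past a log2 fold change of 1 as well, FZD2 in RBE and FZD4 in SSP-25 were called higher, and no receptor in HuH-28, with 5.55%, 6.11% and 2.56% of all genes called higher in those lines. These 2 calls sat at the fold threshold. FZD2 in RBE was 0.99 with a pseudocount of 10, 0.996 after upper-quartile scaling, 0.98 without LKB1 siRNA library 1 and 0.99 without control library 2, and FZD4 in SSP-25 was 0.94 with a pseudocount of 10, 0.93 after quantile normalization and 0.92 without LKB1 siRNA library 2. In turn FZD7 in HuH-28 was 1.06 without LKB1 siRNA library 2 and 1.08 without control library 1, FZD3 in SSP-25 was 1.11 without control library 2, and LRP6 in SSP-25 was 1.03 after upper-quartile scaling. In HuH-28 the count of higher genes was 3 without LKB1 siRNA library 1 or without control library 2, and it was 2 with no gene lower when that line was fitted alone.

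**Figure D2:**
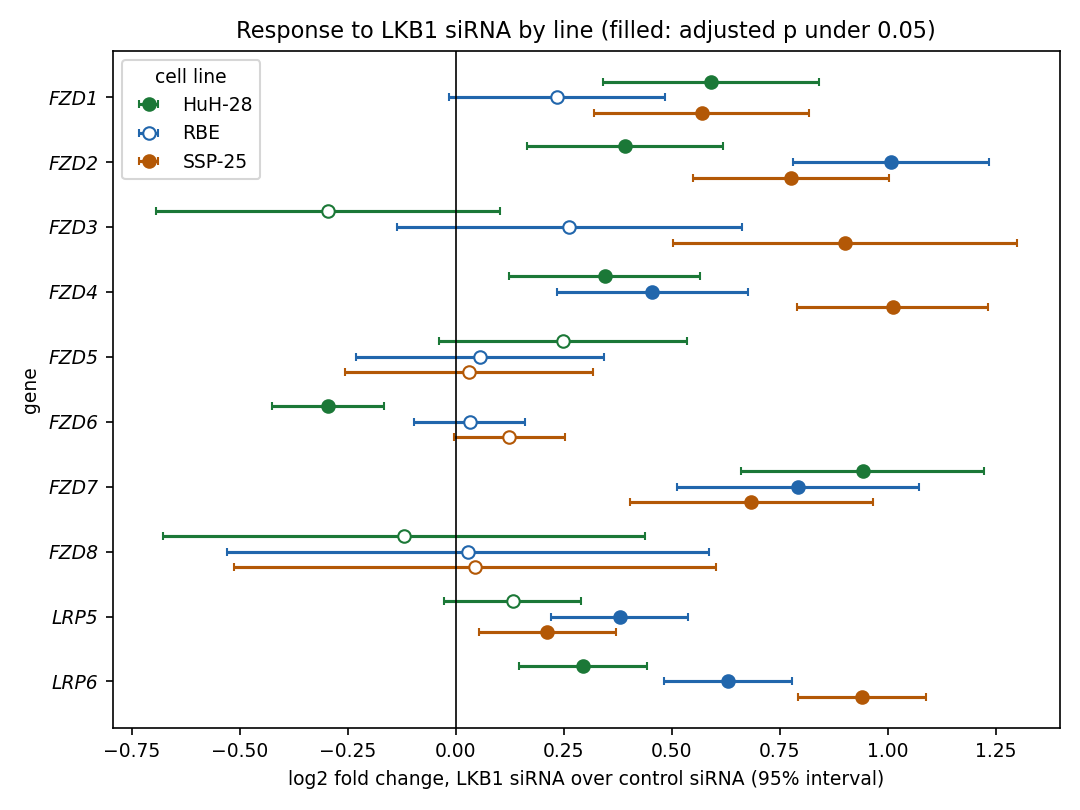
Log2 fold change of LKB1 siRNA over control siRNA for each receptor gene in each line, with 95% intervals from limma, filled where the adjusted p was under 0.05. FZD2, FZD4, FZD7 and LRP6 are filled to the right of 0 in each line, FZD6 is filled to the left in HuH-28, and the intervals of FZD5 and FZD8 cross 0 in each line.

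In the branch of FZD1, FZD2 and FZD7, FZD7 rose in each line. It had a signal of 909 and 767 with LKB1 siRNA and 479 and 394 with control siRNA in HuH-28, 237 and 213 against 143 and 117 in RBE, and 235 and 223 against 137 and 148 in SSP-25. Every LKB1 siRNA library lay above both control libraries of its line. The log2 fold changes were 0.94 for HuH-28 (SE 0.13, adjusted p = 4.4e-04), 0.79 for RBE (adjusted p = 7.0e-04) and 0.68 for SSP-25 (adjusted p = 0.0017).

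FZD2, a receptor through which WNT5A can signal, rose in each line. Its signal was 709 and 685 with LKB1 siRNA and 350 and 343 with control siRNA in RBE, a log2 fold change of 1.01 (SE 0.10, adjusted p = 3.7e-05). SSP-25 had 673 and 680 against 406 and 384, a log2 fold change of 0.78 (adjusted p = 2.0e-04), which did not pass as different from that of RBE (adjusted p = 0.29). In HuH-28 the values were 442 and 363 against 336 and 277, with a log2 fold change of 0.39 (adjusted p = 0.016). That fold change was 0.25 without LKB1 siRNA library 1 and 0.255 without control library 2. It did not pass with the line fitted alone (adjusted p = 0.11). With a block for the replicate number within each line it passed (adjusted p = 6.6e-04).

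FZD1 rose in HuH-28, to 438 and 350 against 281 and 240 (log2 0.59, SE 0.11, adjusted p = 0.0032), and in SSP-25, to 71.9 and 73.5 against 50.2 and 47.5 (log2 0.57, adjusted p = 0.0025). In RBE it had 138 and 143 against 123 and 116, a log2 difference of 0.23 with a 95% interval of -0.02 to 0.48 (adjusted p = 0.12), which passed when RBE was fitted alone (adjusted p = 0.027) and with the replicate block within each line (adjusted p = 0.031). Its libraries did not overlap between siRNAs in any of the 3 lines.

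FZD4, which also binds the non-Wnt ligand norrin in the retinal vasculature, rose in each line and most in SSP-25. SSP-25 had 162 and 184 with LKB1 siRNA and 84.8 and 86.1 with control siRNA (log2 1.01, SE 0.10, adjusted p = 3.0e-05), and RBE had 172 and 164 against 127 and 118 (log2 0.46, adjusted p = 0.0044). In HuH-28 it had 117 and 99.1 against 86.8 and 82.9 (log2 0.34, adjusted p = 0.025). That fold change was 0.22 without LKB1 siRNA library 1, 0.38 without control library 1 and 0.31 without control library 2. It did not pass with the line fitted alone (adjusted p = 0.11). With the replicate block within each line it passed (adjusted p = 0.013).

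FZD6 and FZD3, the pair known from planar polarity and axon guidance in mice, had negative log2 differences in HuH-28 and positive ones in RBE and SSP-25. FZD6 fell in HuH-28, to 956 and 1039 with LKB1 siRNA against 1183 and 1264 with control siRNA (log2 -0.30, SE 0.06, adjusted p = 0.0038), which did not pass with that line fitted alone (adjusted p = 0.071). In RBE it had 619 and 595 against 593 and 594 (log2 0.03, 95% interval -0.10 to 0.16), and in SSP-25 436 and 449 against 396 and 417 (log2 0.12, adjusted p = 0.11). The SSP-25 value passed after quantile normalization (log2 0.15, adjusted p = 0.040), after upper-quartile scaling (log2 0.21, adjusted p = 0.019) and with the replicate block within each line (adjusted p = 0.027). FZD3 rose in SSP-25, to 15.2 and 16.6 against 7.08 and 9.64 (log2 0.90, SE 0.18, adjusted p = 0.0026). It had 18.2 and 19.9 against 23.1 and 23.8 in HuH-28 (log2 -0.30, adjusted p = 0.25) and 15.0 and 15.6 against 13.0 and 12.3 in RBE (log2 0.26, adjusted p = 0.28), so its HuH-28 libraries lay in the opposite order.

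FZD5 and FZD8 passed in no line. FZD5 in RBE, the line where it is abundant, had 215.8 and 222 with LKB1 siRNA and 214 and 207 with control siRNA, a log2 difference of 0.06 with a 95% interval of -0.23 to 0.34. Its log2 difference was 0.25 in HuH-28 and 0.03 in SSP-25. FZD8, at 4.54 to 11.8 over the LKB1 siRNA libraries and 4.55 to 10.5 over the control libraries, had log2 differences of -0.12 (HuH-28), 0.03 (RBE) and 0.04 (SSP-25). Its intervals reached from -0.68 to 0.44 in HuH-28, so a change of up to about that size was not detectable at this level of signal.

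The coreceptor LRP6, which GSK3 and casein kinase phosphorylate once Wnt binds, rose in each line. Its signal was 240 and 249 with LKB1 siRNA and 122 and 132 with control siRNA in SSP-25 (log2 0.94, SE 0.07, adjusted p = 3.7e-06). RBE had 327 and 342 against 211 and 220 (log2 0.63, adjusted p = 4.9e-05), and HuH-28 had 173 and 167 against 136 and 142 (log2 0.29, adjusted p = 0.0080), the last lost with the line fitted alone (adjusted p = 0.083). LRP5, its close relative and a regulator of bone mass, had the smaller log2 fold change in each line. It had 612 and 613 against 476 and 465 in RBE (log2 0.38, adjusted p = 0.0019) and 637 and 540 against 542 and 528 in HuH-28 (log2 0.13, adjusted p = 0.20), where without LKB1 siRNA library 2 it passed (log2 0.25, adjusted p = 0.010). In SSP-25 it had 414 and 408 against 346 and 364 (log2 0.21, adjusted p = 0.035). That call was lost with no filter (adjusted p = 0.055) and with no variance trend (adjusted p = 0.0683). It was also lost without any 1 of the 4 SSP-25 or 4 RBE libraries, with log2 fold changes from 0.1763 to 0.249 without 1 library.

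The ratio of the coreceptors was lower with LKB1 siRNA in each line. The signal of LRP5 over that of LRP6 was 1.73 and 1.64 with LKB1 siRNA and 2.84 and 2.75 with control siRNA in SSP-25, 1.87 and 1.79 against 2.26 and 2.11 in RBE, and 3.67 and 3.24 against 4.0 and 3.73 in HuH-28. The ratios did not overlap in any of the 3 lines, and no test was made of them.

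**Figure D3:**
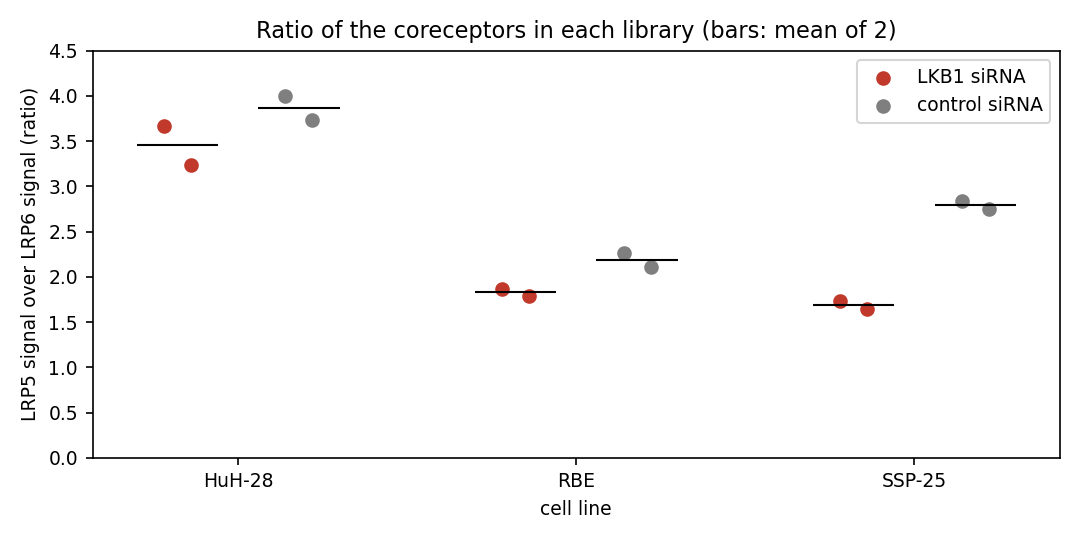
LRP5 signal divided by LRP6 signal in each library, LKB1 siRNA in red left of control siRNA in grey, with bars at the mean of 2. The ratio is lower with LKB1 siRNA in each line, at 1.64 and 1.73 against 2.75 and 2.84 in SSP-25.

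On average over the 3 lines 7 of the 10 genes rose and 0 fell, where 27.3% of all genes tested rose and 25.2% fell, and the median log2 fold change was 0.38 for the 10 genes and 0.03 for all. FZD7 averaged 0.81, FZD2 0.73, LRP6 0.62, FZD4 0.60, FZD1 0.46, FZD3 0.29 and LRP5 0.24, and FZD5 (0.11), FZD6 (-0.05) and FZD8 (-0.02) did not pass. FZD2, FZD4, FZD7 and LRP6, 4 of 10, passed as higher in every line, as did 6.94% of all genes tested. An exact two-sided permutation of the siRNA labels within lines gave 0.0093 for FZD1, FZD2, FZD4, FZD7 and LRP6, the smallest p it allows. It gave 0.019 for LRP5, 0.20 for FZD3, 0.15 for FZD5, 0.51 for FZD6 and 0.88 for FZD8. These permutation p-values were not adjusted. The permutation was run on the 10 genes alone, so the share of all genes that reach its smallest p is unknown. The average of FZD3 was -0.02 without SSP-25 (adjusted p = 0.92). Its call was also lost without RBE (0.30, adjusted p = 0.11), after quantile normalization (0.14, adjusted p = 0.28), which left 6 genes higher on average, and without any 1 of 10 of the 12 libraries (adjusted p 0.051 to 0.086).

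The makeup of the Frizzled signal differed between siRNAs as well, with FZD6 taking a smaller share in each line. The summed signal of FZD1 to FZD8 was 2932 and 2681 with LKB1 siRNA and 2435 and 2318 with control siRNA in HuH-28, 2117 and 2047 against 1572 and 1518 in RBE, and 1632 and 1665 against 1117 and 1130 in SSP-25. FZD6 held 32.6% and 38.7% of it against 48.6% and 54.5% in HuH-28, 29.2% and 29.1% against 37.7% and 39.2% in RBE, and 26.7% and 27.0% against 35.4% and 36.9% in SSP-25. FZD1, FZD2 and FZD7 together held 61.0% and 55.2% against 45.0% and 39.3%, 51.2% and 50.9% against 39.1% and 37.9%, and 60.1% and 58.6% against 53.1% and 51.3% in those lines. FZD2 had the highest signal of the 10 genes in RBE and SSP-25 with LKB1 siRNA, at a mean of 696.9 and 676.6, while FZD6 still led in HuH-28 at 997.3. Shares must sum to the whole, so a lower share of FZD6 does not by itself say that FZD6 fell, and in RBE and SSP-25 its log2 difference was 0.03 and 0.12.

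**Figure D4:**
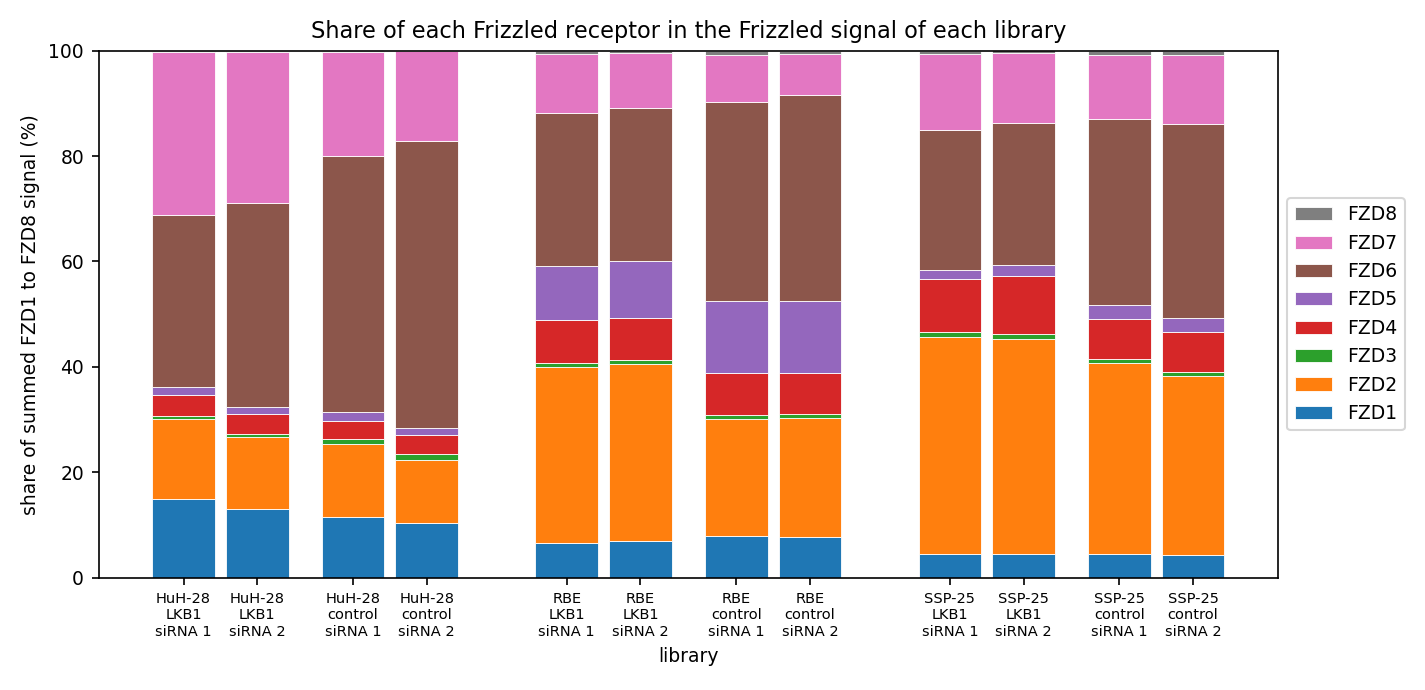
Share of each Frizzled gene in the summed FZD1 to FZD8 signal (%), 1 bar a library, LKB1 siRNA left of control siRNA within each line. The FZD6 share is smaller with LKB1 siRNA in each line, FZD7 takes 31.0% and 28.6% against 19.7% and 17.0% in HuH-28, and FZD2 takes 33.5% and 33.5% against 22.2% and 22.6% in RBE.

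The response differed between lines for 5 of the 10 genes by an F test of the line contrasts, where 28.2% of all genes tested differed. LRP6 had the smallest adjusted p, 0.0029, and its response in HuH-28 was below that in RBE by 0.34 (log2, adjusted p = 0.041) and below that in SSP-25 by 0.65 (adjusted p = 0.0023), with RBE below SSP-25 by 0.31 (adjusted p = 0.043). FZD6 (adjusted p = 0.0097) responded lower in HuH-28 than in RBE by 0.33 (adjusted p = 0.027) and than in SSP-25 by 0.42 (adjusted p = 0.0088). FZD4 (adjusted p = 0.012) responded less in HuH-28 than in SSP-25 by 0.67 (adjusted p = 0.012) and less in RBE than in SSP-25 by 0.56 (adjusted p = 0.021). FZD3 (adjusted p = 0.018) differed between HuH-28 and SSP-25 by -1.20 (adjusted p = 0.013), and FZD2 (adjusted p = 0.026) between HuH-28 and RBE by -0.62 (adjusted p = 0.020). The F test of FZD2 did not pass with no filter (adjusted p = 0.0665) or with no variance trend (adjusted p = 0.0629). Without SSP-25 LKB1 siRNA library 2 the count was 2, as FZD3 (adjusted p = 0.058), FZD4 (adjusted p = 0.059) and FZD2 (adjusted p = 0.054) no longer passed, and FZD2 was also lost without any 1 of 7 other libraries (adjusted p 0.050 to 0.070).

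For FZD7 no difference between lines passed (adjusted p = 0.51), and its response in HuH-28 less that in SSP-25 was 0.26 with a 95% interval of -0.14 to 0.66. For FZD1 the F test gave an adjusted p of 0.17, which became 0.043 without HuH-28 LKB1 siRNA library 2 and 0.043 with the replicate block within each line, and for LRP5 0.18, which became 0.015 without HuH-28 LKB1 siRNA library 1. FZD5 (adjusted p = 0.58) and FZD8 (adjusted p = 0.91) did not pass either.

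Other receptors of the pathway were counted from lists. FZD9 was the only other Frizzled tested, since FZD10 did not pass the filter. It had 54.9 and 44.7 with LKB1 siRNA and 23.98 and 20.3 with control siRNA in SSP-25 (log2 1.15, adjusted p = 0.047), and its log2 differences in HuH-28 (0.49) and RBE (0.87) did not pass. Of 6 other Wnt receptors, HuH-28 and RBE each had 3 that rose and SSP-25 had 2, and 0 fell in each line, beside 14.3%, 22.1% and 21.1% of all genes that rose. They were PTK7, a kinase-dead coreceptor (log2 0.34 in HuH-28, then 0.81 in RBE and 0.76 in SSP-25), RYK, a Wnt-binding pseudokinase (0.34, 0.57 and 0.62), and, in HuH-28 and RBE, the WNT5A receptor ROR1 (0.63 and 0.63). ROR1 had a log2 difference of 0.07 in SSP-25 (adjusted p = 0.63), and its response differed between lines (adjusted p = 0.025). ROR2, LRP4 and MUSK passed in no line, and MUSK stayed under 2 in every library.

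Among 7 tested genes that set how many receptors stay at the surface (ubiquitin ligases, R-spondins and their LGR receptors), 1 rose and 1 fell in HuH-28, 1 rose and 2 fell in RBE, and 5 rose and 0 fell in SSP-25. With 14.3%, 22.1% and 21.1% of all genes higher in those lines, the counts of higher genes in HuH-28 and RBE were no greater than the background. The median log2 fold change of that list was -0.09, 0.41 and 0.86 in those lines. ZNRF3, a ligase that clears Frizzled and LRP6, rose in RBE (0.47, adjusted p = 0.0082) as in SSP-25 (0.43, adjusted p = 0.012), with a log2 difference of 0.23 in HuH-28. RNF43, the other such ligase, named after its values were seen, fell in RBE (-0.97, adjusted p = 0.0097) and rose in SSP-25 (0.90, adjusted p = 0.013), and its response differed between lines (adjusted p = 0.0077). LGR5, a stem cell receptor for R-spondins, had 134 and 112 with LKB1 siRNA against 50.2 and 44.5 with control siRNA in HuH-28 (log2 1.36, adjusted p = 0.017). It also rose in SSP-25, at 3.90 and 2.55 with LKB1 siRNA against 0.375 and 0.0010 with control siRNA (adjusted p = 3.9e-04), where both levels are low, and did not pass in RBE (0.60, adjusted p = 0.22). LGR6 rose in SSP-25, to 11.3 and 11.2 with LKB1 siRNA against a low 2.99 and 1.84 with control siRNA (2.04, adjusted p = 2.9e-04). Its log2 difference in RBE was -0.02, and it stayed under 1 in every HuH-28 library. The response of LGR6 differed between lines (adjusted p = 0.0048). LGR4, named here after its values were seen, fell in HuH-28 (-0.61, adjusted p = 0.0017) and RBE (-0.45, adjusted p = 0.0056) and rose in SSP-25 (0.86, adjusted p = 1.1e-04), and its response differed between lines (adjusted p = 2.6e-04). RSPO1 passed in no line.

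Of 11 tested antagonists that bind LRP or Frizzled, 1 rose in HuH-28, 1 rose and 1 fell in RBE, and 2 rose and 1 fell in SSP-25, with medians of -0.10, 0.32 and 0.30. These counts are at or below the 14.3%, 22.1% and 21.1% of all genes that rose and the 15.5%, 18.6% and 21.1% that fell. KREMEN2, which helps DKK1 remove LRP6 from the surface, rose in each line (0.82, 1.25 and 0.66). In SSP-25 its levels were low, at 2.406 and 2.227 with LKB1 siRNA against 1.116 and 1.465 with control siRNA. DKK1, a secreted inhibitor of LRP5 and LRP6, fell in RBE (-0.86, adjusted p = 1.8e-04) as in SSP-25 (-0.40, adjusted p = 0.015) with a log2 difference of -0.24 in HuH-28. Of 12 tested chaperones and intracellular partners, 0 rose and 3 fell in HuH-28, 4 rose and 0 fell in RBE, and 1 rose and 3 fell in SSP-25, beside the same shares of all genes. CSNK1G3, a casein kinase of the family that phosphorylates LRP6, rose in RBE (0.49) and SSP-25 (0.35), and GRK6, a kinase of G protein-coupled receptors, fell in SSP-25 (-0.54).

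For the receptors that rose in each line, the genes with the most similar pattern over the 12 libraries were sought among the 12205 genes whose mean signal reached 20. They were TSPYL1, JAK1 and SIN3B for FZD7 (Pearson r 0.987, 0.986 and 0.982), URB1, POLR1A and ITPR1 for FZD2 (0.979, 0.962 and 0.962), LCOR, ASH1L and DGKE for FZD4 (0.983, 0.98 and 0.975), and TOB1, RC3H1 and ATP2A2 for LRP6 (0.989, 0.98 and 0.976). The 12 points share lines and siRNAs, so these values describe the pattern, with no test.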

How the data were processed

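Each of the 12 samples was sequenced by the study as single 40-base reads. The methods name NextGENe with NCBI Build 36.1 and RefSeq transcripts, while hg19 (GRCh37), edgeR and TopHat 1.2.0 appear in the submitters' processing notes. Not given in the sources used here is which tool made the table, nor its filters. The deposited values are a signal per gene, reads per kilobase that the authors normalized to a common scale. They are fractional and not counts, so no count model was used, and the depth is unknown. Of the 18815 rows, 28 held a date in place of a symbol and 23 were repeats and left out, and 7441 entries between 0 and 1e-06 were set to 0.

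Genes that reached a signal of 1 in 2 or more libraries were tested with limma 3.58.1 (R 4.3.3) on log2(signal + 0.5). A mean was fitted for each of the 6 groups, with a trend in the variance, 6 residual degrees of freedom and Benjamini-Hochberg adjustment over 16146 genes. On this scale, log2(signal + 0.5), fold changes of low genes are understated. A gene passed at an adjusted p under 0.05 and was called past an absolute log2 fold change of 1 as well. Samples were grouped by the submitters' labels. The tests were checked on simulated data. Exact permutations were enumerated in Python 3.11.15 with numpy 2.4.6. The genes named were the 10 receptors, STK11, the tested genes of the lists of other Frizzled genes and other Wnt receptors, up to 4 genes of each other list by smallest average p, and the 3 genes most like each receptor that rose in every line. RNF43 and LGR4 were named outside this rule, after their values were seen. The members and lists were chosen with earlier results of these data known. Coding sequences and positions came from GENCODE on GRCh38 and promoters from RefSeq. A comparison of the proteins had been planned and was not made. Alternatives were other pseudocounts, filters and scalings, no variance trend, each line alone, replicate blocks, and each library or line left out.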

Additional observations from a re-analysis of the deposited data

Results flagged for a closer look

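The response to LKB1 siRNA differed between the 3 lines for 5 receptor genes by the F test on the line contrasts (limma, Benjamini-Hochberg adjustment over 16146 genes, 28.2% of which passed). The adjusted p was 0.0029 for LRP6, where the log2 fold change was 0.29 for HuH-28, 0.63 for RBE and 0.94 for SSP-25. It was 0.0097 for FZD6, with -0.30, 0.03 and 0.12 in those lines. It was 0.012 for FZD4, with 0.34, 0.46 and 1.01. It was 0.018 for FZD3, with -0.30, 0.26 and 0.90. It was 0.026 for FZD2, with 0.39, 1.01 and 0.78. The F test of FZD2 did not pass with no filter (adjusted p = 0.0665) or with no variance trend (adjusted p = 0.0629). With 2 libraries in a group, no library could be tested as standing apart from its group.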

How the results depend on the processing

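Between the settings tried, FZD7 kept its direction and passed in each line, and so did LRP6 apart from HuH-28 fitted alone. In HuH-28 the number of receptor genes that rose was 5, against 2 with each line fitted alone and 3 to 6 without 1 library, and the number that fell was 1, against 0 with the line alone. On average over the lines 0 fell, against 1 (FZD6) when SSP-25 was left out. The number whose response differed between lines was 5, against 2 to 6 without 1 library. Values of FZD8 near 0 changed sign most often. After quantile normalization it was -0.202 for RBE and -0.26 for SSP-25 (log2), and its average was 0.0019 after upper-quartile scaling and 0.036 without HuH-28. Without 1 library it ran from -0.38 to 0.14 for HuH-28, -0.14 to 0.20 for RBE, -0.11 to 0.20 for SSP-25 and -0.10 to 0.070 on average. FZD5 in SSP-25 was -0.17 after quantile normalization and -0.0496 to 0.11 without 1 library. The averages were -0.016 for FZD3 without SSP-25 and 0.078 for FZD6 without HuH-28. Between HuH-28 and SSP-25 under control siRNA, FZD4 was 0.023 after upper-quartile scaling and -0.0435 to 0.022 without 1 library, FZD5 was -0.000607 and LRP6 -0.0613 after quantile normalization. Between RBE and SSP-25, FZD7 was 0.044 after upper-quartile scaling and -0.28 to 0.0052 without 1 library. Of these reversed values the main ones had not passed, except that of FZD3. The cause was not tested. A fit on genes whose mean signal reached 20 leaves out FZD3 and FZD8 and gave no count over all 10.

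Deviations of same-numbered libraries of a line correlated across genes at r = 0.43 for HuH-28, 0.0023 for RBE and 0.033 for SSP-25. The study calls the numbers tests, and whether a number marks an experiment shared by the siRNAs was not settled from this, so the fit without the block was kept. With the replicate block within each line, the genes that rose were 5 for HuH-28, 6 for RBE and 8 for SSP-25. FZD1 in RBE (adjusted p = 0.031) and FZD6 in SSP-25 (adjusted p = 0.027) then passed, and the F test for FZD1 gave 0.043. With 2 libraries a group and an unknown depth, small differences of low genes such as FZD8 and FZD3 could not be measured well, and an exact test within a line could reach no small p. Levels are of RNA and give no receptor at the cell surface.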
